A study of Mus musculus with 6 samples.

Results

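The genes described here are the alpha crystallins Cryaa and Cryab, the small heat shock proteins Hspb1, Hspb2, Hspb6 and Hspb8, and Hsf4, the heat shock factor of the lens. They were taken by gene symbol. All 7 were found, among 41449 rows of a table of RNA levels in mouse lenses. The libraries were made from total RNA of lenses of 2-month-old mice, 2 lenses to a library. There were 3 libraries from mice with a conditional knockout of fibronectin (FNcKO) on a mixed background of C57BL/6, 129 and FVB/N, and 3 from wild-type mice (WT) of strain C57BL/6. Genotype and strain background divide the libraries in the same way, so they cannot be told apart in any comparison below. The Cre line that deletes fibronectin, a protein of the extracellular matrix, is not given in the sources used here.

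Small heat shock proteins share an alpha crystallin domain, form large oligomers and bind unfolding proteins, which keeps them from aggregating without the use of ATP. In the lens the alpha A and alpha B chains, encoded by Cryaa and Cryab, are built into the cytoplasm of fiber cells as structural proteins and as chaperones for the beta and gamma crystallins, since mature fibers lose their nuclei and organelles. Hsf4 binds heat shock elements in DNA and is needed for fiber cell differentiation; mutations in HSF4, CRYAA and CRYAB cause cataract in people.

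Levels are FPKM, fragment numbers scaled for transcript length and for the depth of the library, as the authors deposited them. From the steps that single fragments make in low values, the depth was estimated at 19700000 to 21300000 fragments in FNcKO libraries and 26200000 to 31600000 in WT libraries. All 8 lens fiber markers were above 1 FPKM on average, and the 7 with a value in each library (all but Bfsp2) summed to between 9923.2 and 10804.1 FPKM in FNcKO and between 10011.3 and 10673.7 FPKM in WT. The 8 lens epithelium markers summed to between 1436.8 and 1652.2 FPKM in FNcKO and between 1347.2 and 1401.1 FPKM in WT, without overlap. Of these, 2 passed limma at adjusted p 0.05, both higher in FNcKO, Slc7a5 (0.0159) and Epha2 (0.0422). Of 5 photoreceptor markers tested, 1 was called lower, Gnat1 (limma, adjusted p = 0.0215), which has no value in WT replicate 2. Sums of the other photoreceptor markers overlapped. Of all genes tested, 0.857% rose and 1.03% fell. Fn1, the targeted gene, stood at 0.128, 0.0482 and 0.0942 FPKM in FNcKO replicates 1 to 3 and at 0.135, 0.188 and 0.253 FPKM in WT replicates 1 to 3. Every FNcKO value of Fn1 lay below every WT value, but in limma without the filter on low values its log2 change was -0.13 (SE 0.05, adjusted p = 0.438).

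The heat shock element is built from GAA and TTC units spaced by any 2 letters. The upstream sequences below show which of these genes hold a pair of such units, facing each other, near their start. RefSeq promoter sequences (GRCm38.p6) were at hand for 4 of the 7 genes, Cryaa, Hspb1, Hspb6 and Hspb8, and not for Cryab, Hspb2 and Hsf4. Capitals mark GAANNTTC (which reads the same on both strands) or, for Cryaa, TGCTGAC, the core of the site that Maf factors bind. The first and last lines give all 250 bases before the start. For Cryaa and Hspb6 only 30 bases around the match are given, because annotated exons reach into the rest.
Hspb1 (chr5:135887669-135887918, plus strand): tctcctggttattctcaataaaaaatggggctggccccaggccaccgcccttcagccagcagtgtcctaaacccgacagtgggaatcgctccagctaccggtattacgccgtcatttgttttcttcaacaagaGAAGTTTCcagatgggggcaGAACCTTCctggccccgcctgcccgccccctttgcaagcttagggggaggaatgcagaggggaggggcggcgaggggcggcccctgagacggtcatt
Hspb6 (chr7:30553170-30553199, plus strand): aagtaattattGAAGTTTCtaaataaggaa
Cryaa (chr17:31677812-31677841, plus strand): agcattccagcTGCTGACggtgcagcctct
Hspb8 (chr5:116422865-116423114, minus strand): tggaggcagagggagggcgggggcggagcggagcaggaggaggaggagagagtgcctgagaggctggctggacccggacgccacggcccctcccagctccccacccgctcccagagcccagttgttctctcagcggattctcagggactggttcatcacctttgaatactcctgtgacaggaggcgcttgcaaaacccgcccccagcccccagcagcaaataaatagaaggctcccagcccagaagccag

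Hspb1 held GAANNTTC at 2 places, 117 to 110 and 97 to 90 bases before the start. Hspb6 held it once, 120 to 113 bases before 1 of its 2 starts, and not before the other. Neither Cryaa nor Hspb8 held it in this window. Of 32851 mouse windows of the same length, 6.69% held GAANNTTC. The reversed arrangement TTCNNGAA, found in 7.17% of windows, and the heat shock element of 3 units, on either strand, found in 0.466%, were in none of these windows of the 4 genes. The Maf core TGCTGAC, on either strand, lay 108 to 102 bases before the start of Cryaa and in 3.81% of all windows.

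The levels of the 7 genes covered a very wide range in the lens and kept the same order in all 6 libraries. Cryaa was highest, then Cryab, Hspb1, Hsf4, Hspb2, Hspb6 and Hspb8, and for no neighbours in that order did the ranges over the 6 libraries overlap. Since FPKM is a level per length of transcript, these levels can be set side by side. Cryaa took rank 8, 4 and 7 among 37870 rows in FNcKO replicates 1 to 3 and rank 7 in each WT library, and Cryab took rank 14 in each FNcKO library and rank 12, 12 and 13 in WT. Hspb1 lay between rank 80 and rank 105 in FNcKO and between rank 83 and rank 94 in WT. The lowest Cryaa value, 37678 FPKM, lay above the highest Cryab value, 26959 FPKM, and the lowest Hspb6 value, 1.98 FPKM, above the highest Hspb8 value, 1.41 FPKM.

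**Figure D1:**
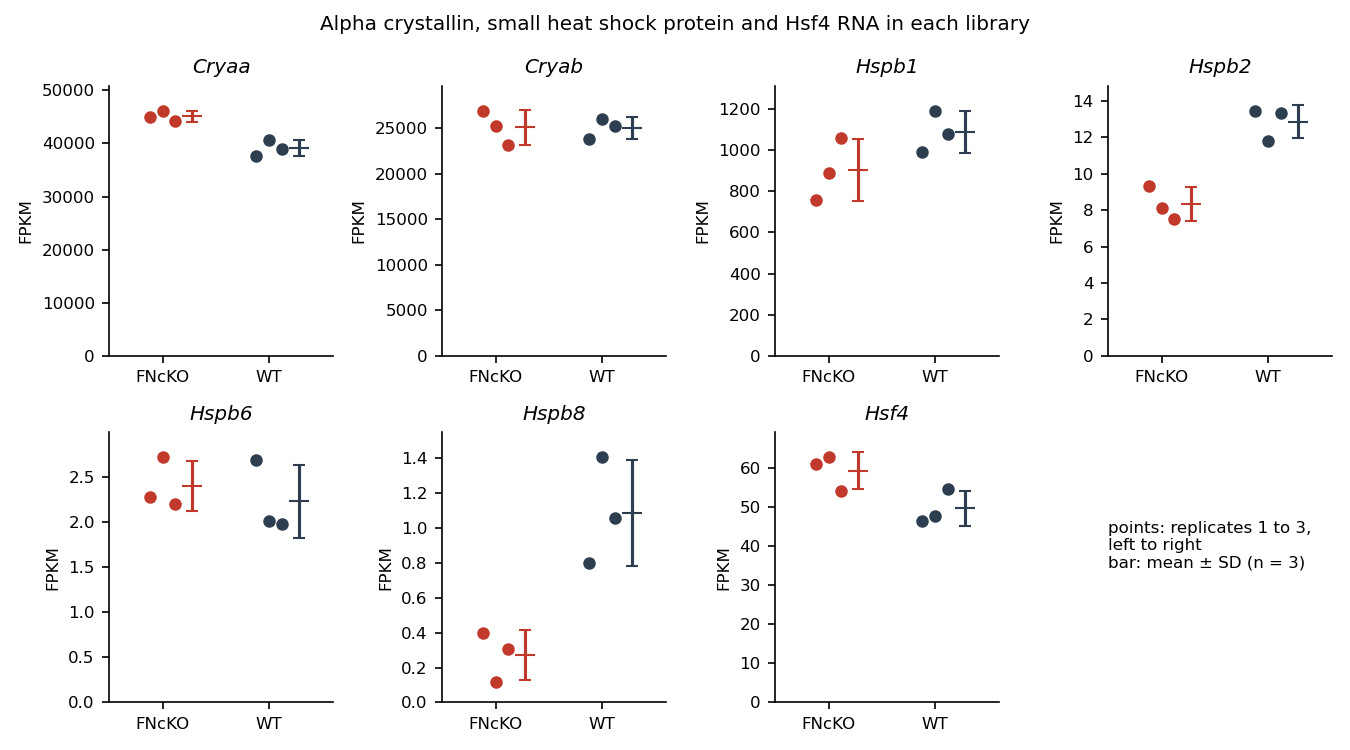
Level in FPKM (vertical axes, each from 0) of the 7 genes in every library, FNcKO to the left of WT; points are replicates 1 to 3 from left to right and bars the mean ± SD (n = 3). FNcKO and WT points do not overlap for Cryaa (higher in FNcKO), Hspb2 and Hspb8 (both lower in FNcKO), and overlap for the other 4 genes.

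None of the 6 genes above the filter of a mean of 1 FPKM (all but Hspb8) passed limma's test at adjusted p 0.05, where 1.89% of the 10149 genes tested did, 0.857% higher and 1.03% lower in FNcKO. At an unadjusted p under 0.05 there were 2, Hspb2 and Hsf4, where 18.1% of all genes tested fell under it. FNcKO and WT values did not overlap for Cryaa and Hspb2, 2 of these 6, where 25.1% of tested genes measured in all libraries did not overlap (9.1% with FNcKO higher, as Cryaa, and 16.0% with FNcKO lower, as Hspb2). Counts as small as these are no result about the family. All log2 changes given for single genes are on log2(FPKM + 1), FNcKO over WT, and adjusted p-values are limma's, over all genes tested.

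Cryaa (chromosome 17, 31677931 to 31681730, GRCm38) encodes the alpha A chain, which in mammals is found almost wholly in the lens. It stood at 44977, 46186 and 44137 FPKM in FNcKO replicates 1 to 3, against 37678, 40686 and 39018 FPKM in WT replicates 1 to 3. All 3 FNcKO libraries lay above all 3 WT libraries, and the FNcKO values lay close together. The means were 45100.1 ± 1029.7 FPKM in FNcKO and 39128 ± 1507 FPKM in WT (SD, n = 3 each), a ratio of 1.15. The log2 change of 0.21 (SE 0.11, 95% interval -0.06 to 0.47, adjusted p = 0.382) did not pass the test. Mouse Cryaa also gives a longer protein with an insert exon, and a value for the whole gene does not divide the forms.

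Cryab (chromosome 9, 50751325 to 50756636) encodes the alpha B chain, which muscle, heart and brain make as well. Its values were 26959, 25293 and 23134 FPKM in FNcKO and 23779, 26075 and 25264 FPKM in WT. The groups overlapped, with both the highest and the lowest value in FNcKO. The means of 25129 ± 1918 FPKM in FNcKO and 25040 ± 1164 FPKM in WT (SD, n = 3 each) gave a log2 change of 0.0 (SE 0.11, adjusted p = 0.99). The 95% interval of that change ran from -0.28 to 0.28 on the values as deposited. It does not cover the choice of scaling between libraries. The log2 change was -0.28 after quantile normalization. It was 0.43 with libraries scaled to a common FPKM total without crystallins, where the median of all genes was 0.29.

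The balance of the 2 alpha chains was compared within each library, where scaling between libraries has no part. Cryaa stood at 1.67, 1.83 and 1.91 times Cryab in FNcKO replicates 1 to 3, against 1.585, 1.56 and 1.54 times in WT replicates 1 to 3. The groups did not overlap, and the WT ratios were nearly alike. The ratio averaged 1.8 ± 0.122 in FNcKO and 1.56 ± 0.0202 in WT (SD, n = 3 each). The difference of log2 ratios was 0.202 (exact two-sided permutation test, p = 0.1, the smallest that 3 against 3 allows). Leaving out any one library cannot turn its sign, since the groups do not overlap.

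The alpha chains together made up 15, 15.4 and 15.6% of the FPKM of 16 crystallins in FNcKO replicates 1 to 3, against 15.8, 16 and 16.1% in WT replicates 1 to 3. Every FNcKO share lay below every WT share, a difference of -0.62 percentage points (exact two-sided permutation test, p = 0.1, the smallest possible). The crystallin total behind this share was higher in FNcKO, 430816 to 480952 FPKM against 389554 to 417395 FPKM in WT. The alpha chains themselves summed to 67271.5 to 71936.5 FPKM in FNcKO and 61457 to 66761 FPKM in WT. The lower share thus went with a higher alpha sum. The Cryab part was 5.48% ± 0.12 in FNcKO and 6.22% ± 0.107 in WT (SD, n = 3 each), while the Cryaa part was 9.85% ± 0.455 in FNcKO and 9.72% ± 0.0441 in WT (SD, n = 3 each). The gamma crystallins, long known as substrates of alpha crystallin, took 47.7% ± 1.26 of crystallin FPKM in FNcKO and 42.65% ± 0.647 in WT (SD, n = 3 each). The beta crystallins, also its substrates, took 37.0% ± 1.07 in FNcKO and 41.4% ± 0.608 in WT (SD, n = 3 each). Of the FPKM summed over all rows measured in all 6 libraries, the alpha chains took 4.73, 5.71 and 4.51% in FNcKO against 3.56, 3.92 and 3.94% in WT (exact two-sided permutation test, p = 0.1, the smallest possible). The total behind that last share was lower in FNcKO, 1251386 to 1519627 FPKM against 1631866 to 1725738 FPKM in WT, and that share moves with it.

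**Figure D2:**
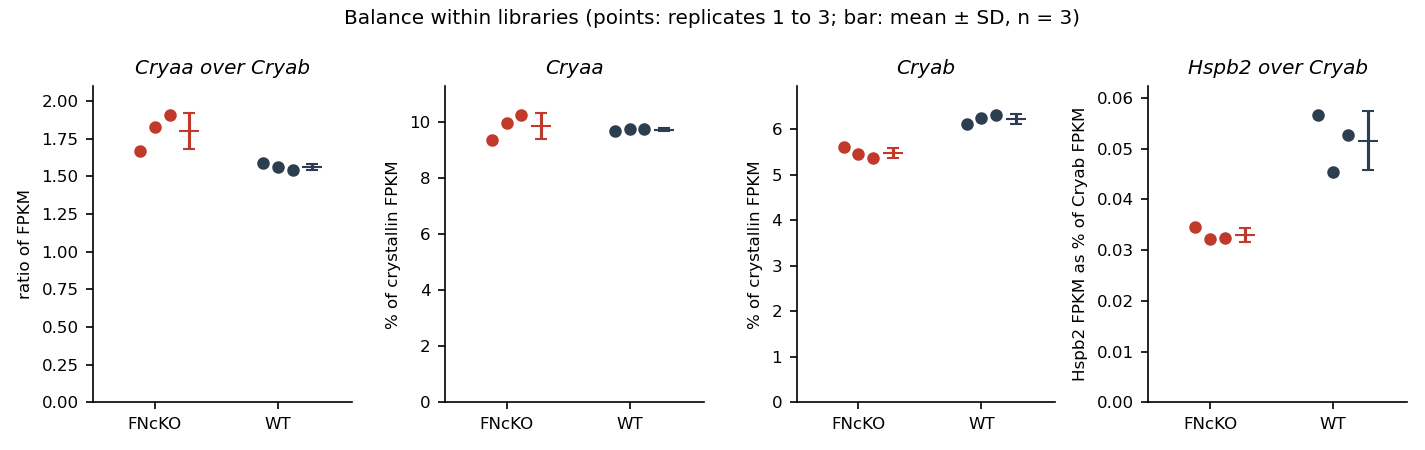
Ratio of Cryaa to Cryab, percent of crystallin FPKM in Cryaa and in Cryab, and Hspb2 FPKM as a percent of Cryab FPKM (vertical axes from 0) in each FNcKO and WT library, FNcKO on the left; points are replicates 1 to 3 and bars the mean ± SD (n = 3). The Cryaa to Cryab ratio lies between 1.67 and 1.91 in FNcKO and between 1.54 and 1.585 in WT, while the Cryaa share of crystallin FPKM overlaps between the groups.

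Hspb2 (chromosome 9, 50751072 to 50752354), also called MKBP, is a small heat shock protein best known from heart and skeletal muscle, where it binds the kinase of myotonic dystrophy. It lies head to head with Cryab. Hspb2 stood at 9.34, 8.12 and 7.51 FPKM in FNcKO replicates 1 to 3, against 13.5, 11.8 and 13.3 FPKM in WT replicates 1 to 3. All FNcKO values lay below all WT values. The means were 8.32 ± 0.935 FPKM in FNcKO and 12.9 ± 0.912 FPKM in WT (SD, n = 3 each), a log2 change of -0.58 (SE 0.1, 95% interval -0.81 to -0.34). The adjusted p of 0.0504 missed the threshold narrowly. With a pseudocount of 0.1 FPKM in place of 1 the adjusted p was 0.0462 (2.0% of genes passed), and over the 15 alternatives it ran from 0.0462 to 0.461.

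Hspb2 and Cryab share 252 exon bases on opposite strands in GENCODE M21, 30.2% of the exon bases of Hspb2, and 2 Cryab transcripts start inside Hspb2. The start of the most upstream Cryab transcript outside Hspb2 lies 553 bases past the outermost Hspb2 start. The kit keeps strand, but the use of strand in counting is not given in the sources used here, so reads of these neighbours cannot be told apart with certainty, and Cryab was far the more abundant. Hspb2 came to 0.03465, 0.0321 and 0.0324% of the Cryab level in FNcKO replicates 1 to 3, against 0.0567, 0.0453 and 0.0527% in WT. The FNcKO percentages lay below all WT percentages.

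Hspb8 (chromosome 5, 116408491 to 116422864) works with the co-chaperone Bag3 to deliver misfolded proteins to autophagy. It was the scarcest of the 7 and lay below the filter. Its values were 0.3965, 0.115 and 0.305 FPKM in FNcKO replicates 1 to 3 and 0.801, 1.41 and 1.06 FPKM in WT replicates 1 to 3, or about 13.8, 3.89 and 9.72 fragments in FNcKO and 40.9, 64.3 and 44.7 fragments in WT. The groups did not overlap, and the lowest WT value was above the highest FNcKO value. The means of 0.272 ± 0.144 FPKM in FNcKO and 1.09 ± 0.304 FPKM in WT (SD, n = 3 each) differ 4-fold. In limma without the filter the log2 change was -0.71 (SE 0.15, adjusted p = 0.162, where 0.366% of 27623 genes passed; unadjusted p = 0.003007, where 10.7% fell under 0.05). With the filter lowered to 0.5 FPKM, a choice made after the values were seen, the adjusted p was 0.082, and 1.52% of genes passed. The shift on the log scale is small beside the ratio because the pseudocount is near the level itself; with a pseudocount of 0.1 FPKM it was -1.73 (adjusted p = 0.172). Bag3, its partner, named here after its values were seen, stood at 4.24, 4.02 and 3.005 FPKM in FNcKO against 5.147, 5.144 and 5.105 FPKM in WT, with a log2 change of -0.38 (adjusted p = 0.17).

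Muscle uses Hspb2, Hspb6, Hspb8 and Cryab, and the iris and ciliary body beside the lens hold muscle and pigment cells. The 9 muscle markers summed to between 65.8 and 78.7 FPKM in FNcKO and between 95.3 and 106.7 FPKM in WT. Nearly all of that was Acta2, smooth muscle actin, at 70.85 ± 6.54 FPKM in FNcKO and 99.3 ± 6.055 FPKM in WT (SD, n = 3 each; adjusted p = 0.0702). Desmin (Des), Myh11, Tagln and Cnn1, which define smooth or striated muscle, averaged under 0.2 FPKM in both groups, and Cnn1 was listed at 0 in all libraries but WT replicate 1. Of the other striated muscle markers, Acta1 averaged 0.767 FPKM in FNcKO and 0.79 FPKM in WT. Ckm averaged 0.486 FPKM in FNcKO and 0.828 FPKM in WT, and both had overlapping groups. Myh1 and Tnnt3 averaged under 0.2 FPKM in both groups with higher means in FNcKO, without overlap for Myh1. The 7 pigment cell markers summed to between 5.49 and 7.18 FPKM in FNcKO and between 9.73 and 16.8 FPKM in WT. Most of that difference was Ttr, transthyretin, at 3.68 ± 0.756 FPKM in FNcKO and 8.85 ± 2.87 FPKM in WT (SD, n = 3 each). Tyr and Tyrp1, enzymes of pigment synthesis, had higher means in FNcKO with overlapping groups. Dct, Pmel, Rpe65 and Mlana had lower means in FNcKO, and of these only Mlana had groups that did not overlap. Mlana was listed at 0 in FNcKO and at 0.286 to 0.476 FPKM in WT. The markers of the ciliary body and iris summed to between 171.6 and 210.0 FPKM in FNcKO and between 112.4 and 131.5 FPKM in WT. All 5 tested had log2 changes above 0 (median 0.63), where 39.7% of all genes tested did. Aqp1, 1 of these 5, passed limma's test (adjusted p = 0.0432), where 0.857% of all genes tested rose. It averaged 15.6 ± 3.96 FPKM in FNcKO and 5.27 ± 0.991 FPKM in WT (SD, n = 3 each). Aqp1, Optc and Slc4a5, 3 of the 5, were higher in FNcKO without overlap, where 9.1% of tested genes measured in all libraries were. The part of these tissues in the Hspb2 and Hspb8 values was not tested. In whole lenses, fewer cells of a type and less RNA per cell cannot be told apart.

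Hspb1 (chromosome 5, 135887919 to 135889563), called Hsp25 in mouse, binds actin filaments as well as unfolded proteins. Its values were 760.1, 889.3 and 1061 FPKM in FNcKO and 991.9, 1193 and 1077 FPKM in WT. The groups overlapped, with FNcKO replicate 3 inside the WT range. The means of 903.5 ± 150.9 FPKM in FNcKO and 1087 ± 100.8 FPKM in WT (SD, n = 3 each) gave a log2 change of -0.28 (SE 0.15, adjusted p = 0.387). Within FNcKO the coefficient of variation was 16.7%, against a median of 12% over all genes tested; within WT it was 9.27%, against 9.29%.

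Hspb6 (chromosome 7, 30552556 to 30555439), or Hsp20, is best known from smooth muscle and heart. Its values were 2.28, 2.72 and 2.19 FPKM in FNcKO and 2.69, 2.01 and 1.98 FPKM in WT. The groups overlapped almost fully, with a log2 change of 0.08 (SE 0.11, 95% interval -0.2 to 0.36, adjusted p = 0.771).

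Hsf4 (chromosome 8, 105269741 to 105275845) stood at 61.1, 62.8 and 54 FPKM in FNcKO replicates 1 to 3, against 46.4, 47.8 and 54.7 FPKM in WT replicates 1 to 3. The groups overlapped only through FNcKO replicate 3, which lay just below WT replicate 3. The means were 59.3 ± 4.67 FPKM in FNcKO and 49.6 ± 4.45 FPKM in WT (SD, n = 3 each), a ratio of 1.2 and a log2 change of 0.25 (SE 0.1, adjusted p = 0.249).

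The scaling between libraries moved the log2 change of all genes, whose median was -0.04 as deposited, 0.15 with the FPKM of each library scaled to a common total and 0.29 with crystallins left out of that total. Changes were therefore also read relative to the median of all genes tested, under 5 scalings. On that basis Hspb2 lay between -0.54 and -0.48, Hspb8 between -0.87 and -0.67, and Hsf4 between 0.3 and 0.38. Cryaa lay between 0.09 and 0.34, Hspb6 between 0.09 and 0.12 and Hspb1 between -0.23 and -0.09. Cryab was the only 1 of the 7 to take both signs, from -0.29 after quantile normalization to 0.14.

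**Figure D3:**
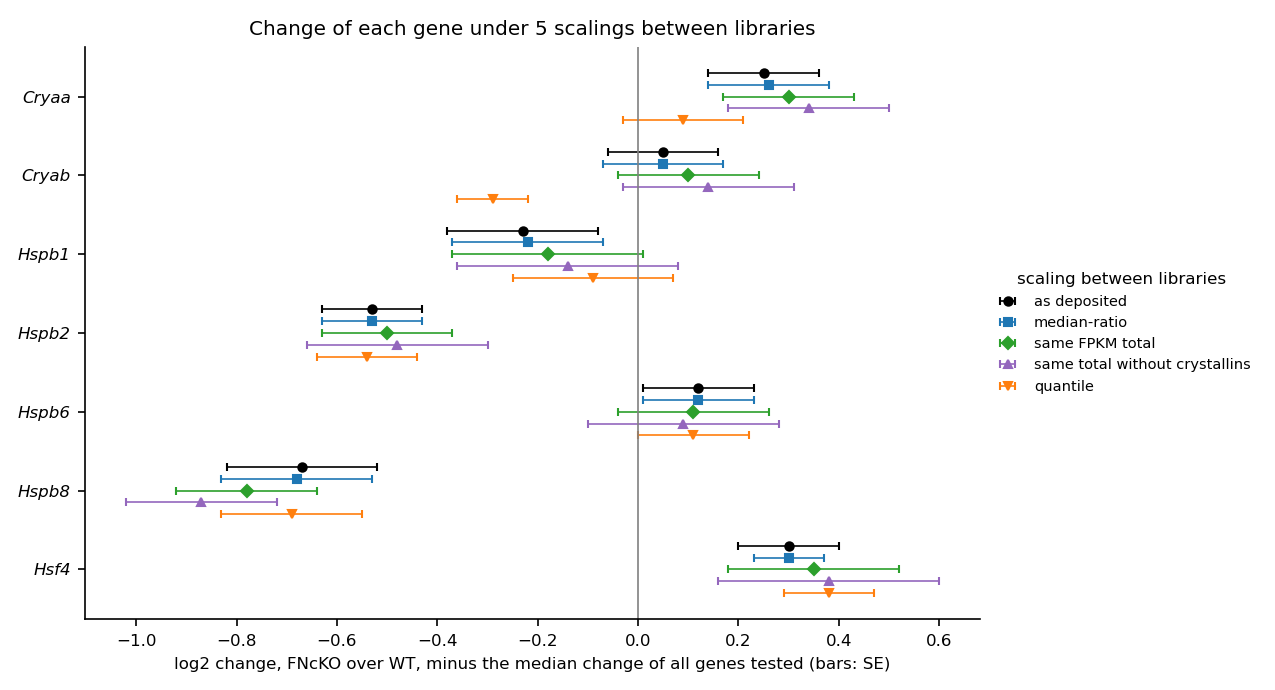
Log2 change of each gene, FNcKO over WT, minus the median change of all genes tested (horizontal axis; bars are the SE), under 5 scalings between libraries (colours). Hspb2 and Hspb8 lie below 0 and Hsf4 above 0 under each scaling, while Cryab lies at -0.29 after quantile normalization and between 0.05 and 0.14 under the other 4.

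The related genes were read from lists of relatives, partners, regulators and other lens genes. The list of genes linked to Hsf4 was written from general knowledge and not taken from a database. Of the other genes listed under the name of small heat shock proteins, Hspb3 and Hspb11 were above the filter. Of these, 0 of 2 passed limma's test, also 0 at an unadjusted p under 0.05. Hspb11, a part of the transport machinery of cilia, averaged 19.6 ± 2.1 FPKM in FNcKO and 21.5 ± 3.27 FPKM in WT (SD, n = 3 each; adjusted p = 0.676), and Hspb3, known from muscle, 3.75 ± 1.56 FPKM in FNcKO and 3.14 ± 1.116 FPKM in WT (SD, n = 3 each; adjusted p = 0.813). Hspb7, Hspb9 and Odf1 lay near 0. Of the other heat shock factor genes and Hsbp1, a factor-binding protein, those above the filter were Hsf1, Hsf2 and Hsbp1. Of these, 0 of 3 passed, again with 0 at an unadjusted p under 0.05. Hsf5 lay near 0. Hsf2 averaged 2.31 ± 0.368 FPKM in FNcKO and 2.05 ± 0.118 FPKM in WT (SD, n = 3 each), and Hsbp1, which binds heat shock factor trimers, 18.2 ± 1.02 FPKM in FNcKO and 17.6 ± 0.98 FPKM in WT (SD, n = 3 each). Hsf1, the stress-responsive factor, named here after its values were seen, averaged 1.66 ± 0.297 FPKM in FNcKO and 1.92 ± 0.338 FPKM in WT (SD, n = 3 each), so Hsf4 was the most abundant of these DNA-binding factors in both groups.

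Of 19 chaperones and co-chaperones above the filter, 0 passed limma's test, with 8 at an unadjusted p under 0.05, where 18.1% of all genes tested fell under it. The median log2 change was -0.01, against -0.04 over all genes. The most abundant were Hsp90ab1, at 794.8 ± 67.2 FPKM in FNcKO and 826.9 ± 20.6 FPKM in WT (SD, n = 3 each; adjusted p = 0.771), and Hspa8, the constitutive HSP70, at 589.5 ± 37 FPKM in FNcKO and 709.4 ± 44.2 FPKM in WT (SD, n = 3 each; adjusted p = 0.196). The heat-inducible Hspa1a and Hspa1b averaged under 0.5 FPKM in both groups.

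Of 13 lens genes linked to Hsf4 in mouse, 2 rose and 0 fell, where 0.857% of all genes tested rose and 1.03% fell. Log2 changes were above 0 in 12 of the 13, where 39.7% of all genes tested were above 0, and their median was 0.19, against -0.04 over all genes. These genes include 7 crystallins that share a family, and the list was not tested as a set. Other lens lists leaned the same way. Log2 changes were above 0 in 5 of 7 other crystallins (median 0.23) and in 6 of 8 lens fiber markers (median 0.15). Some of the fiber markers are also on the list linked to Hsf4. That list gives no direction in which each gene depends on Hsf4. Both that passed were gamma crystallins, Cryge (43151 ± 4667 FPKM in FNcKO and 22494 ± 944.8 FPKM in WT, SD, n = 3 each; adjusted p = 0.0331) and Cryga (8020 ± 1266 FPKM in FNcKO and 3590 ± 618.7 FPKM in WT, SD, n = 3 each; adjusted p = 0.0422). Neither passed with any one library left out, where adjusted p ran from 0.0704 to 0.2 for Cryge and from 0.0732 to 0.168 for Cryga. For Cryge and Cryga the calls were also lost after quantile normalization (adjusted p = 0.0637 and 0.0966), with no filter on low values (0.247 and 0.108) and with the replicate block (0.179 and 0.137). Because gamma crystallin transcripts resemble each other closely, how fragments were shared out between Cryga, Cryge and their paralogs is uncertain. Fgf7 was listed at 0 in all 6 libraries.

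Of 8 transcription factors that act on alpha crystallin genes, 0 passed limma's test, with 2 at an unadjusted p under 0.05 (18.1% of all genes tested) and a median log2 change of 0.0, against -0.04 over all genes. Maf, which activates Cryaa in the lens, stood at 69.3, 86.4 and 80.6 FPKM in FNcKO against 62.05, 67.1 and 63.4 FPKM in WT. Its groups did not overlap (log2 change 0.29, adjusted p = 0.21). Prox1, a homeobox factor of fiber differentiation, averaged 59.5 ± 4.84 FPKM in FNcKO and 59.1 ± 1.38 FPKM in WT (SD, n = 3 each; adjusted p = 0.975). Of the 7 other crystallins, 0 passed limma's test, with 2 at an unadjusted p under 0.05 (18.1% of all genes tested) and a median log2 change of 0.23, against -0.04 over all genes. Crybb2 averaged 90095 ± 4021 FPKM in FNcKO and 96926 ± 2013 FPKM in WT (SD, n = 3 each), and Cryba1 32133 ± 1130.5 FPKM in FNcKO and 27409 ± 1131 FPKM in WT (SD, n = 3 each).

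**Figure D4:**
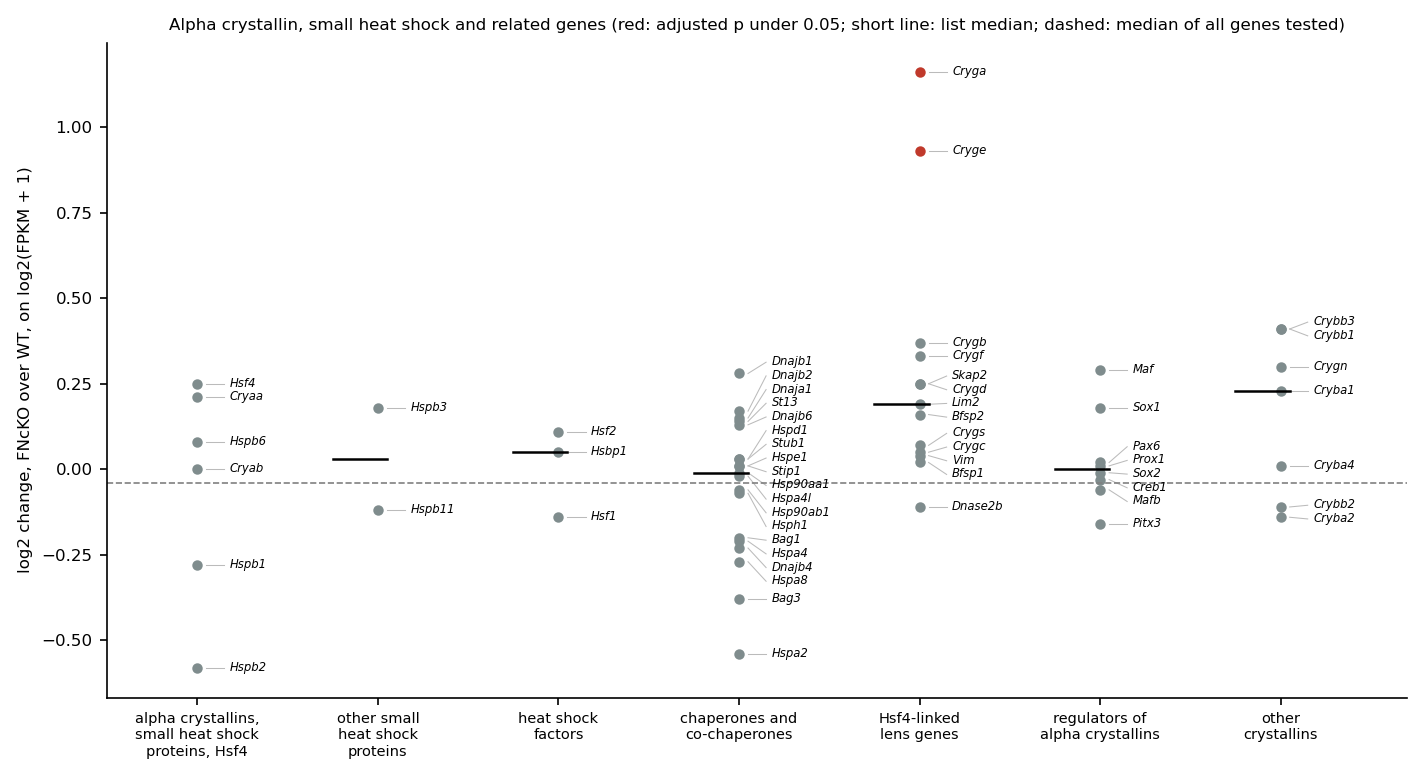
Log2 change on log2(FPKM + 1), FNcKO over WT (vertical axis), of the 6 genes above the filter and of the tested genes of 6 related lists, 1 point a gene. Short lines are list medians, the dashed line is the median of all genes tested (-0.04), and Cryga and Cryge, in red, are the only points past adjusted p 0.05.

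The genes whose pattern over the 6 libraries was nearest to that of each alpha chain were sought among 1680 genes averaging 10 FPKM or more. Likeness was the root mean square difference of log2(FPKM + 1) values, each centred on the gene's own mean. Nearest to Cryaa were Tdrd7 (0.019), an RNA granule protein whose loss causes cataract, Dnmbp (0.025), a scaffold of actin regulators, and Cryba1 (0.026), a beta crystallin, where the median gene lay 0.169 away. Nearest to Cryab were Cryba4 (0.022), a beta crystallin, Gatad2a (0.028), a subunit of the NuRD complex, and Rpl12 (0.028), a ribosomal protein, where the median gene lay 0.129 away. The points behind each distance are the same 6 libraries, which also share their scaling. These genes were picked as the smallest of 1680 distances, so they lie below the median gene by construction. Shared regulation was not tested.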

How the data were processed

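Total RNA of mouse lenses was measured in 6 libraries, 3 FNcKO and 3 WT, grouped by their titles; the labels call the samples of a genotype biological replicates. The authors deposited 1 table of FPKM values. The submitters' processing notes name Cuffdiff 2.2.1, TopHat2 2.1.0, cutadapt 1.12 and FastQC, and the builds mm10 and GRCm38.p5; for annotation, scaling and use of strand nothing is stated there. WT replicate 2 has no value in 3578 rows (8.63%), none of them a gene of the family described here; such genes were fitted on 5 libraries.

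From the deposited FPKM, log2(FPKM + 1) was fitted for the 10149 genes averaging 1 FPKM or more by limma 3.58.1 under R 4.3.3, with two-sided moderated tests and a mean-variance trend, with Benjamini-Hochberg adjustment over all of them and a threshold of 0.05. Genes below the filter were read from a fit without it. For ratios and shares, the 3 FNcKO and 3 WT values entered an exact permutation test (two-sided). The fit was tested on simulated data.

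Depth was searched for the value that puts most low values of single-exon genes within 0.15 of a whole fragment, with transcript length reduced by 180 or 200 bases; this held for 64.4 to 73.3% of the values used. Fragment numbers use the longest coding transcript and are approximate.

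The genes, lists and tests were chosen with earlier results of these data known. Named genes are the 7 of the family, Fn1, up to 4 called genes of each list (or its 2 most abundant), and the 3 nearest patterns to each alpha chain, leaving out chromosome 18 and predicted genes. Alternatives were 4 scalings, another pseudocount, other filters, a replicate block and leaving out each library.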

Additional observations from a re-analysis of the deposited data

How the results depend on the processing

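The number of genes past adjusted p 0.05 was 192 as reported, 93 with the FPKM of each library scaled to a common total, 87 with that total taken without crystallins and 101 with no filter on low values. The share higher in FNcKO was 45.3% as reported and 72.0% and 77.0% under the 2 scalings to a total. Without one library the number of genes ran from 37 to 117. The replicate numbers pair no samples: deviations from the group means correlated between -0.0545 and -0.0271 for same-numbered libraries, and with the replicate block 9 genes passed. The ratio and the shares kept their direction without any one library and with the replicate block. That was fixed beforehand, since FNcKO and WT values of each did not overlap. The alpha share of all FPKM also kept its direction with the most abundant row left out of the total. The FNcKO minus WT difference of the log2 ratio of Cryaa to Cryab was 0.202 as reported and with the replicate block (exact permutation test, p = 0.25, the smallest that 3 pairs allow).

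Of the 6 genes of the family above the filter, 1, Hspb2, passed with a pseudocount of 0.1 FPKM (log2 change -0.63). Cryab took the opposite sign after quantile normalization (-0.28) and ran from -0.05 to 0.06 without one library, and Hspb1 stood at 0.15 with the same total without crystallins. That scaling moved the median of all genes to 0.29, and relative to it Hspb1 stood at -0.14. Quantile normalization sets each value from its rank, and Cryab took rank 14 in each FNcKO library and rank 12, 12 and 13 in WT. The cause of the Cryab sign after quantile normalization was not tested further. The log2 changes of the other 5 genes kept their sign under each alternative that gave a value.

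Among related genes, none of them called, these changed sign. The first pair of scalings moved the median of all genes to 0.15 and 0.29, so these values are given with those relative to it. With the same total, and with it taken without crystallins, Hspb11 stood at 0.12 and 0.29 (relative, -0.03 and -0.01), Hsp90ab1 at 0.19 and 0.37 (0.04 and 0.07), Crybb2 at 0.15 and 0.32 (-0.01 and 0.03), and Rpl12 at 0.24 and 0.42 (0.09 and 0.12); without crystallins Hspa8 stood at 0.16 (-0.13). After quantile normalization Hsp90ab1 stood at 0.17, Hspa8 at 0.11, Crybb2 at 0.26, Rpl12 at 0.29 and Cryba1 at -0.13, and Rpl12 at 0.03 with median-ratio scaling. Without one library the log2 change ran from -0.03 to 0.47 for Hspb3, from -0.11 to 0.01 for Hsp90ab1, from -0.04 to 0.07 for Prox1, from -0.04 to 0.05 for Cryba4, from -0.01 to 0.08 for Gatad2a and from -0.05 to 0.04 for Rpl12. Depth limits Hspb8 most, since its FNcKO values rest on about 3.89 to 13.8 fragments.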
